A study of Mus musculus with 2 samples.

Results

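The mouse 2′-5′-oligoadenylate synthetase (Oas) family was followed through its members *Oas1a*, *Oas2*, *Oas3*, *Oasl1* and *Oasl2*, which are 5 of the 13289 genes listed in both libraries. They were chosen by name. All 5 passed the filter on low values in the main class of cells, *Oas1a* through the Wt library only. The cells came from the tibialis anterior, a shin muscle of the mouse, on day 4 after the muscle received 50 µl of cardiotoxin at 10 µM. This toxin of the snake Naja pallida kills muscle fibres and starts inflammation and repair. Live cells (Zombie aqua-) that carried CD45 and CD11b and lacked Ly6G were sorted, which takes in monocytes, macrophages and dendritic cells, and 8000 cells per genotype were loaded for droplet 3′ RNA sequencing. The Wt library came from C57BL/6 mice. The Gata3KO library came from mice labelled C57BL/6:Cx3cr1CRExGata3fl/fl, in which Cre from the *Cx3cr1* gene, active in monocytes, macrophages and some dendritic cells, is meant to remove a floxed *Gata3* gene. Both groups received cardiotoxin, and by their labels the Wt mice carried neither Cre nor the floxed allele. There was 1 library per genotype, and the sources used here give no number, age or sex of animals and do not say whether animals were pooled. Genotype, Cre, animal and library therefore cannot be told apart, no test between genotypes was possible, and every interval below is a 95% interval for counting error only.

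Oas proteins are sensors of double-stranded RNA, made in larger amounts after cells receive interferon. *Oas1a*, *Oas2* and *Oas3* are synthetases: on binding double-stranded RNA they join ATP into 2′-5′-linked oligoadenylates (2-5A), a messenger that leads to the breakdown of RNA and a stop of translation in infected cells. *Oasl1* and *Oasl2* carry the Oas fold with ubiquitin-like repeats. *Oasl1* makes no 2-5A and is known for holding back translation of *Irf7*, the factor that amplifies interferon production, while mouse *Oasl2* keeps synthetase activity. The genes are classic targets of interferon through factors such as STAT2 and IRF9, and in injured muscle such genes are known mainly from infiltrating monocytes and macrophages.

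All 5 members lie on chromosome 5 of the build mm10 (GRCm38), in a pair of clusters. *Oasl2* (ENSMUSG00000029561, chr5:114896936-114912234, plus strand) and *Oasl1* (ENSMUSG00000041827, chr5:114923240-114937915, plus strand) are neighbours. *Oas2* (ENSMUSG00000032690, chr5:120730333-120749853), *Oas3* (ENSMUSG00000032661, chr5:120753098-120777661) and *Oas1a* (ENSMUSG00000052776, chr5:120896256-120907521) share the minus strand, with the Oas1 paralogs beside them. The annotation places *Gm43068* on the other strand of *Oas2* and *Gm13822* on the other strand of *Oasl1*, and the sources used here do not say whether the counting used strand.

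The bases just before the start sites are shown because all 5 members differed in 1 direction between the libraries and *Oas1a* differed least. RefSeq promoters of GRCm38.p6 matched 4 of the 5 members, and the 250 bases upstream of the start are printed 5′ to 3′ on the gene's own strand. Capitals mark matches to the core of the interferon-stimulated response element (ISRE), a site bound by complexes with STAT2 and IRF9, searched on both strands as the letters GAAA, any 2 bases, then GAAA again. The windows are chr5:120907526-120907775 for *Oas1a*, chr5:120777660-120777909 for *Oas3*, chr5:114922990-114923239 for *Oasl1*, chr5:114896684-114896933 for *Oasl2* and, for the paralog *Oas1g*, chr5:120887614-120887863.
Oas1a: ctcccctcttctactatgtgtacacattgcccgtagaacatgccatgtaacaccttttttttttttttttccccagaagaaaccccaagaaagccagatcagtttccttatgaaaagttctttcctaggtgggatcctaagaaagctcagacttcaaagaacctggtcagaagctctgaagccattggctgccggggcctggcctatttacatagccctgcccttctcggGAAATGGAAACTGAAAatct
Oas1g: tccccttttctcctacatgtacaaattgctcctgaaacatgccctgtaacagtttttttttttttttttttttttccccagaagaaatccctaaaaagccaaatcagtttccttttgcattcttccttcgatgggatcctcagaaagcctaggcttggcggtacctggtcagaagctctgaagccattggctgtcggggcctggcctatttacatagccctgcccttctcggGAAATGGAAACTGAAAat
Oas3: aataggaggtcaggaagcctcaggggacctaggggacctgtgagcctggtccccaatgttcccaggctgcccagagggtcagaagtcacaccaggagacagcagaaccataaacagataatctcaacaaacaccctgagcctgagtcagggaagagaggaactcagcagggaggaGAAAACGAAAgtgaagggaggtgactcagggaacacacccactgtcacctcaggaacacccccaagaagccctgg
Oasl1: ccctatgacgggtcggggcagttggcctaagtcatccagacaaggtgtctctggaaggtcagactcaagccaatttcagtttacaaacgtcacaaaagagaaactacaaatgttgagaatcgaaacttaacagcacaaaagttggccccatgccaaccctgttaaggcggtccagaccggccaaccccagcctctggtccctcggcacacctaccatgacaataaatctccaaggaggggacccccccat
Oasl2: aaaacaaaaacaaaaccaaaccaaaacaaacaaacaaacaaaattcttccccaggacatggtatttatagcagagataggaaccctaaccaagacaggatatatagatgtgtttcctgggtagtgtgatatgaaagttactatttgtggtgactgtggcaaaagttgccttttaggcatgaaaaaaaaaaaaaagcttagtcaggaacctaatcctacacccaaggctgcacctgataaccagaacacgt
In the full windows of 300 bases, which run on for 50 bases after the start, the ISRE core occurred in 3.44% of all 32851 RefSeq promoters, and 2 or more matches occurred in 0.225%. *Oas1a* held 2 overlapping matches, from -20 to -11 and from -14 to -5 relative to the start. *Oas1g* held the same pair of matches at -18 to -9 and -12 to -3. The paralog *Oas1c*, whose window is not printed, held this pair on the other strand and further from the start. Its matches ran from -114 to -105 and from -108 to -99. *Oas3* held 1 match, from -75 to -66. For *Oasl1* and *Oasl2* these letters were not in the window. *Oas2* is named here without a promoter. Positions count from the RefSeq start. For *Oas1a* and *Oasl2* the first bases after that start did not occur in a GENCODE transcript of the gene. A match is a description of the letters and not a measured binding site.

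The Wt table held 3290 barcodes and 15392330 UMIs (unique molecular identifiers, each a counted transcript) while Gata3KO had 3434 barcodes and 19422237 UMIs. A filter of 500 or more UMIs, 200 or more genes and no more than 10% mitochondrial UMIs kept 990 Wt and 650 Gata3KO cells, with medians of 5836 and 13716 UMIs. The libraries shared 2 barcodes, neither of them kept in both. *Gata3* had 1 UMI in each library among monocytes and macrophages, so the deletion could not be checked at this depth. *Ptprc*, which encodes CD45, had a UMI in 97.5% of Wt and 94.5% of Gata3KO cells of that class, and *Itgam*, which encodes CD11b, in 68.2% and 81.0%.

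The cells were clustered after interferon-induced genes, the members included, had been taken out, so that no member defined a state. The main class, monocytes and macrophages, joined 3 clusters with 396 Wt cells (median 9118.5 UMIs) and 452 Gata3KO cells (median 16661.5 UMIs). Cluster 1 was lipid-handling macrophage-like (*Fabp5*, *Gpnmb*, *Spp1*) with 129 Wt and 189 Gata3KO cells. Cluster 2 was macrophage-like and led by *Ccl12*, *Mrc1* and *Ccr2*, with 204 and 93 cells. Cluster 3 was a stress and chemokine macrophage-like state (*Cxcl2*, *Gdf15*, *Cxcl1*) with 63 and 170 cells. Outside the class, cluster 4 was like conventional dendritic cells of type 2 (*Cd209a*, *Flt3*, *Clec10a*; 106 and 47 cells), cluster 7 was like mature dendritic cells (*Ccr7*, *Fscn1*, *Ccl22*; 74 and 10 cells) and cluster 8 was skeletal muscle-like (32 and 4 cells). Clusters 0, 5 and 6 stayed unnamed and were kept out of the class by limits set after the data were seen. Cluster 0, of low UMI count, held 23.9% of Wt and 12.8% of Gata3KO kept cells, cluster 5, which mixed collagen-rich and cycling cells, 6.06% and 6.15%, and cluster 6, also of low UMI count, 8.59% and 2.15%.

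All 5 members were lower in Gata3KO monocytes and macrophages, 4 of them by between 3.44-fold and 4.78-fold and *Oas1a* by 1.78-fold. Levels are given as CPM, the UMIs of a gene scaled so that all genes of the class sum to the same total in both libraries, and since the 3′ end of each transcript is counted they are not scaled by length. The members summed to 2963 UMIs in Wt, or 665 CPM (641 to 689), and to 1313 UMIs in Gata3KO, or 173 CPM (163 to 182). The summed level was 3.85-fold higher in Wt, a log2 ratio of Gata3KO over Wt of -1.95 (-2.04 to -1.85). Each of the 5 members was lower by over 1.5-fold, against 7.38% of the 5880 genes measured at 20 CPM or more in at least 1 library, and 0 members against 4.49% of those genes were higher. Over all kept cells the 5 members were lower as well, against 9.29% of genes lower and 6.52% higher, and over every barcode again all 5, against 7.08% lower and 5.39% higher. For the class, all kept cells and every barcode alike, *Oas1a* reached 20 CPM only in Wt. In the 2300 Wt and 2784 Gata3KO barcodes that the filter left out, all 4 measured members were lower, against 8.52% of genes lower and 6.45% higher. Only in Wt did *Oas3* reach 20 CPM there. The median log2 ratio was -1.95 over the members and 0.04 over all measured genes.

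Among the synthetases, *Oas3*, the long form that binds long double-stranded RNA, had 632 UMIs in Wt and 226 in Gata3KO. Its level was 142 CPM (131 to 153) in Wt and 29.7 CPM (26.0 to 33.8) in Gata3KO, a log2 ratio of -2.26 (-2.48 to -2.03) and the largest difference among the members. *Oas2* had 355 and 176 UMIs. Its level was 79.7 CPM (71.6 to 88.4) in Wt and 23.1 CPM (19.8 to 26.8) in Gata3KO, a log2 ratio of -1.78 (-2.05 to -1.52). *Oas1a*, the short form, had 143 and 137 UMIs, almost the same number from a Gata3KO class with more UMIs in all. Its level was 32.1 CPM (27.1 to 37.8) in Wt and 18 CPM (15.1 to 21.3) in Gata3KO, a log2 ratio of -0.83 (-1.18 to -0.49). The intervals of the libraries did not overlap for any of these synthetases. The share of all measured genes with intervals apart is not given here.

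Of the members with ubiquitin-like repeats, *Oasl2* supplied more UMIs than any other member, 1412 in Wt and 594 in Gata3KO. Its level was 317 CPM (301 to 334) in Wt and 78.1 CPM (71.9 to 84.6) in Gata3KO, a log2 ratio of -2.02 (-2.16 to -1.88). *Oasl1* had 421 and 180 UMIs. Its level was 94.5 CPM (85.7 to 104) in Wt and 23.7 CPM (20.3 to 27.4) in Gata3KO, a log2 ratio of -2.00 (-2.26 to -1.74). The intervals of the ratios of *Oas2*, *Oasl1* and *Oasl2* overlapped one another.

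Summed markers of several other cell types were lower in the Gata3KO class as well. The 6 of 6 skeletal muscle markers found summed to 145 CPM in Wt and 48.5 CPM in Gata3KO. The mature dendritic cell markers (5 of 5) summed to 47.8 CPM and 3.55 CPM, those of type 1 dendritic cells (5 of 5) to 193 CPM and 99.6 CPM, and those of type 2 dendritic cells (5 of 6, with *Ccl17* at 0 in both) to 116 CPM and 35.9 CPM. Neutrophil markers were level, at 98.3 CPM and 101 CPM with *Retnlg* at 0 in both, and T and NK cell markers were at 8.53 CPM and 1.97 CPM with *Cd3e*, *Nkg7* and *Ncr1* at 0 in both. The makeup of the class itself also differed, with inflammatory monocyte markers (10 of 10) at 2073 CPM in Wt and 1269 CPM in Gata3KO, cluster 2 holding 51.5% of its Wt cells and clusters 1 and 3 holding 41.8% and 37.6% of its Gata3KO cells. Other lists were higher in Gata3KO. Stress and chemokine macrophage markers summed to 1381 CPM in Wt and 3067 CPM in Gata3KO, and resident-like macrophage markers to 1338 CPM and 2195 CPM. Lipid-handling macrophage markers were higher as well, and plasmacytoid dendritic cell markers were at 8.31 CPM and 19.1 CPM. With state shares held equal the summed log2 ratio was -1.78. The part of the other cell types, of the lower depth of Wt and of RNA free in the droplets in the members' difference was not tested. Within cluster 1, where Wt and Gata3KO medians were 11683 and 18923 UMIs, all 5 members were again lower.

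The family's summed level was lower in Gata3KO in each of the 9 clusters, and at this clustering the lowest Wt cluster lay above the highest Gata3KO cluster. At a finer clustering this no longer held: the lowest Wt state, lipid-handling macrophage-like, was at 356 CPM (307 to 410) and the highest Gata3KO state, led by *Clec4b1* and *Ccr2*, at 560 CPM (451 to 687). In Wt the summed level was highest in cluster 6 at 946 CPM (802 to 1107), cluster 2 at 843 CPM (801 to 888) and cluster 7 at 816 CPM (740 to 897). Cluster 3 at 700 CPM (647 to 757), cluster 0 at 691 CPM (631 to 756) and cluster 4 at 607 CPM (557 to 660) followed. Cluster 8 at 501 CPM (415 to 599), cluster 1 at 478 CPM (447 to 511) and cluster 5 at 407 CPM (374 to 443) were lowest. Each neighbour in this Wt order overlapped the next except clusters 1 and 5, while cluster 2 stood above cluster 3 and cluster 3 above cluster 1. In Gata3KO, cluster 2 at 325 CPM (292 to 360), cluster 0 at 291 CPM (235 to 357) and cluster 4 at 286 CPM (240 to 338) could not be ordered. Cluster 1 at 150 CPM (137 to 164), cluster 3 at 143 CPM (130 to 157) and cluster 5 at 136 CPM (114 to 160) lay below them. Clusters 6, 7 and 8 held 5, 12 and 12 family UMIs in Gata3KO, too few to place. Cluster 3 was thus above cluster 1 in Wt, while in Gata3KO their intervals overlapped.

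**Figure D1:**
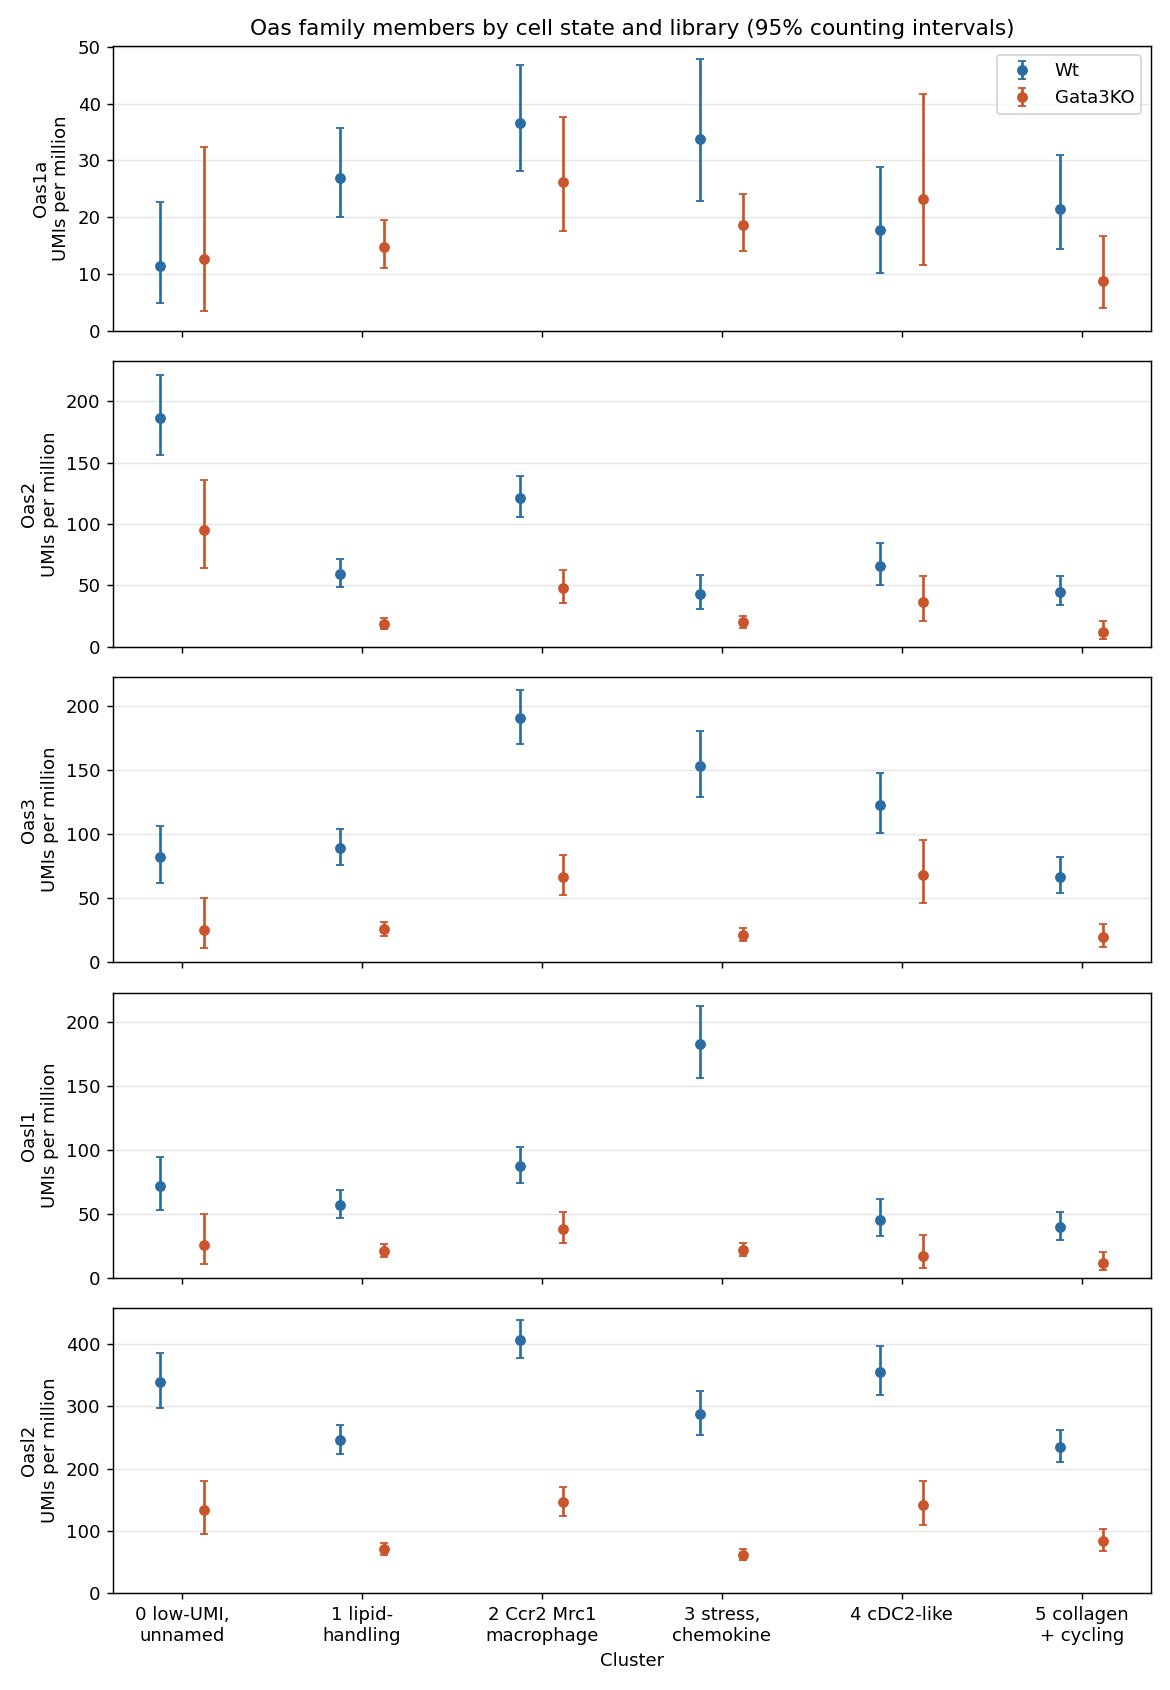
Level of each member in CPM (vertical axes, linear from 0, a scale of its own per member) in the 6 clusters that held 20 or more cells from each of Wt and Gata3KO (horizontal axis), Wt in blue and Gata3KO in orange, points being summed levels and bars 95% Poisson counting intervals. The Wt point is higher for every member in clusters 1, 2, 3 and 5, while for *Oas1a* in cluster 4 it is 17.7 CPM against 23.3 CPM in Gata3KO and in cluster 0 it rests on 8 and 4 UMIs.

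In lipid-handling macrophage-like cells of cluster 1, all 5 members were lower past 1.5-fold, against 6.17% of genes lower and 3.47% higher. Only in Wt did *Oas1a* and *Oas2* reach 20 CPM there. *Oas1a* was 27.0 CPM in Wt and 14.8 CPM in Gata3KO, a log2 ratio of -0.87 (-1.46 to -0.27). The other members had log2 ratios from -1.44 for *Oasl1* to -1.80 for *Oas3* and *Oasl2*. In cluster 2, 4 of 5 members were lower past that fold, against 13.2% of genes lower and 11.8% higher. *Oas1a*, the exception, was 36.6 CPM in Wt and 26.2 CPM in Gata3KO, and its log2 ratio of -0.48 had an interval that included 0 (-1.17 to 0.17). The other members of cluster 2 lay between -1.20 for *Oasl1* and -1.52 for *Oas3*. Marker levels of cluster 2 differed between Wt and Gata3KO too. Resident-like macrophage markers summed to 979 CPM and 4343 CPM, and stress and chemokine macrophage markers to 290 CPM and 940 CPM. Those of type 2 dendritic cells summed to 244 CPM and 117 CPM, and those of inflammatory monocytes to 2423 CPM and 2458 CPM. The part of these levels in the members' difference was not tested.

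Among the 6 clusters with 20 or more cells from each genotype, the stress and chemokine macrophage-like cluster 3 had the widest gap between libraries, and the ratios of the members there were unequal. All 5 were lower past 1.5-fold, against 10.7% of genes lower and 12.5% higher, and the summed log2 ratio was -2.29 (-2.47 to -2.12), beyond the intervals of cluster 1 (-1.67, -1.83 to -1.51) and cluster 2 (-1.38, -1.55 to -1.21). Its marker levels differed too: between Wt and Gata3KO, inflammatory monocyte markers summed to 4213 CPM and 1173 CPM, mature dendritic cell markers to 143 CPM and 2.62 CPM, and general macrophage markers to 21128 CPM and 41737 CPM. Their part in the members' difference was not tested. *Oasl1* was 183 CPM (156 to 213) in Wt and 21.6 CPM (16.7 to 27.5) in Gata3KO, a log2 ratio of -3.08 (-3.52 to -2.66). *Oas3* was 154 CPM (129 to 181) in Wt and 21.0 CPM (16.1 to 26.8) in Gata3KO, a log2 ratio of -2.87 (-3.32 to -2.44). *Oas2*, in contrast, was only 42.5 CPM (30.2 to 58.1) in Wt and 19.6 CPM (15 to 25.3) in Gata3KO, a log2 ratio of -1.11 (-1.72 to -0.49), beside -0.86 (-1.51 to -0.17) for *Oas1a*. Only in Wt did *Oas1a* and *Oas2* reach 20 CPM in this cluster. Wt cells of cluster 3 were 15.9% of the Wt cells of the class and held 20.6% of their UMIs over all genes. They supplied 39.9% of the *Oasl1* UMIs of the Wt class but 11% of its *Oas2* UMIs. *Oasl1* made up 26.1% (22.8 to 29.7) of the family's UMIs in Wt cluster 3 and 10.4% (7.81 to 13.5) in Wt cluster 0, so that the members were not present in 1 fixed ratio across the cells of this library.

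In the type 2 dendritic cell-like cluster 4, 4 of 5 members were lower past 1.5-fold, against 15.5% of genes lower and 9.72% higher. The limit of 20 CPM was reached only in Wt by *Oasl1* and only in Gata3KO by *Oas1a*. *Oasl2* was 356 CPM in Wt and 142 CPM in Gata3KO, a log2 ratio of -1.33 (-1.73 to -0.94), while *Oas2* and *Oas3* were both at -0.86. *Oas1a* was 17.7 CPM (16 UMIs) in Wt and 23.3 CPM (11 UMIs) in Gata3KO, and its log2 ratio of 0.39 could not be told from 0 at this depth (-0.86 to 1.59). Marker levels of cluster 4 differed between Wt and Gata3KO as well. Inflammatory monocyte markers summed to 3863 CPM and 1968 CPM. Type 2 dendritic cell markers, with *Ccl17* at 0 in both, summed to 1818 CPM and 2203 CPM. The part of these levels in the members' difference was not tested. The mixed cluster 5 had all 5 members lower, against 11% of genes lower and 10.9% higher. All of them except *Oasl2* reached 20 CPM there only in Wt. The low-UMI cluster 0 had all 4 measured members lower, against 16.2% of genes lower and 20.2% higher.

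**Figure D2:**
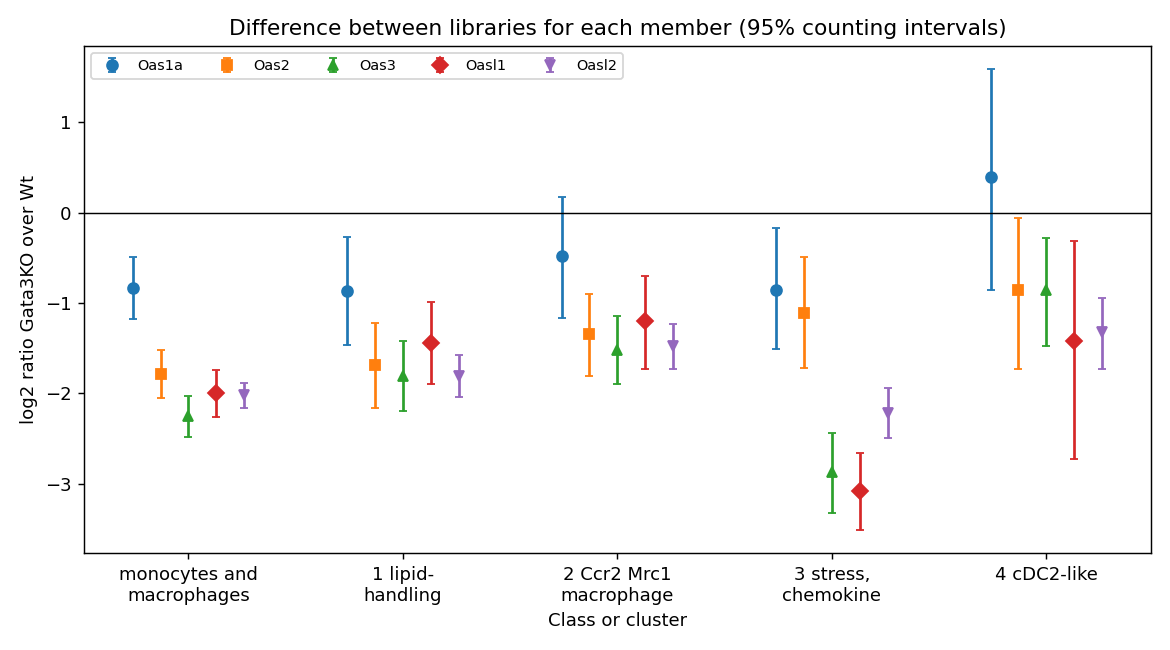
Log2 ratio of Gata3KO over Wt (vertical axis, with a line at 0) for each of the 5 members in the main class and in clusters 1 to 4 (horizontal axis), points being ratios and bars 95% exact conditional intervals. *Oas1a* is the uppermost point in each group, at -0.83 in the class, and *Oas3* and *Oasl1* are lowest in cluster 3, at -2.87 and -3.08.

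*Oas1a* took a larger share of a smaller pool of family UMIs in Gata3KO, a comparison within each library that needs no scaling between them. In the class *Oas1a* was 4.83% (4.08 to 5.66) of family UMIs in Wt and 10.4% (8.83 to 12.2) in Gata3KO, with intervals from the exact Clopper-Pearson method. The log2 ratio of *Oas1a* minus that of the other 4 members summed was 1.2 (0.84 to 1.56). The same difference was 0.87 (0.25 to 1.49) in cluster 1, 0.95 (0.24 to 1.63) in cluster 2, 1.57 (0.88 to 2.28) in cluster 3 and 1.56 (0.27 to 2.80) in cluster 4. In cluster 5 it was 0.31 with an interval that included 0 (-0.99 to 1.47), and in cluster 0 it was 1.43 (-0.79 to 3.36). In 1 random thinning of each cell to 2000 UMIs, 12 Gata3KO and 32 Wt *Oas1a* UMIs were left and the difference was 0.35, with an interval that included 0 (-0.78 to 1.39). Single thinnings differ by chance at such low numbers. The mean over all possible thinnings, an alternative chosen after the data were seen, was 17.0 Gata3KO and 26.3 Wt *Oas1a* UMIs, with a difference of 1.15.

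No other member stood as far from the rest in the class. The log2 ratio of *Oas3* minus that of the other members summed was -0.38 (-0.63 to -0.14), so *Oas3* was the member furthest below the rest. The differences were 0.19 (-0.10 to 0.47) for *Oas2*, -0.06 (-0.34 to 0.22) for *Oasl1* and -0.14 (-0.33 to 0.05) for *Oasl2*, all with intervals that included 0. *Oasl2* was 47.7% of family UMIs in Wt and 45.2% in Gata3KO, *Oas3* 21.3% and 17.2%, *Oasl1* 14.2% and 13.7%, and *Oas2* 12% and 13.4%. In cluster 3 alone, *Oas2* stood with *Oas1a*, its difference from the other members being 1.30 (0.67 to 1.96).

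**Figure D3:**
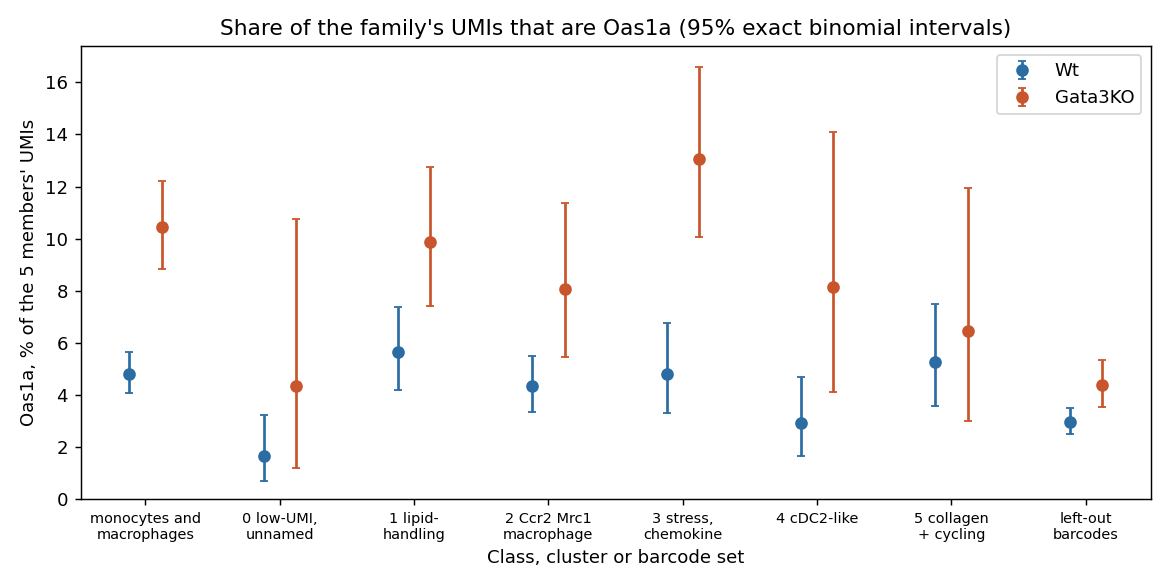
Share of the family's UMIs that were *Oas1a*, in percent (vertical axis, from 0), in the main class, in clusters 0 to 5 and in the barcodes left out by the filter (horizontal axis), Wt in blue and Gata3KO in orange, bars being exact 95% binomial intervals. The Gata3KO point is above the Wt point in each set, with intervals apart in the class (4.83% and 10.4%), cluster 1 (5.65% and 9.86%), cluster 3 (4.82% and 13.1%) and the left-out barcodes (2.98% and 4.39%), and overlapping in clusters 0, 2, 4 and 5.

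The 2 Oas1 paralogs with counts in both libraries had differences similar in size to that of *Oas1a*. *Oas1g*, an active synthetase, had 59 UMIs in Wt and 55 in Gata3KO, 13.2 and 7.23 CPM, a log2 ratio of -0.87 (-1.43 to -0.32) that was 1.16 (0.59 to 1.72) above the other 4 members. *Oas1c* had 50 and 40 UMIs, 11.2 and 5.26 CPM, a log2 ratio of -1.09 (-1.73 to -0.47) that was 0.94 (0.29 to 1.58) above them. Both lay below 20 CPM and were compared after the data were seen. Summed over *Oas1a*, *Oas1c* and *Oas1g* the log2 ratio was -0.89 (-1.15 to -0.63), and it exceeded that of the other 4 members by 1.14 (0.86 to 1.42). The counts of *Oas1a* are uncertain: of the 451 windows of 50 bases in the last 500 bases of its longest coding transcript, 253 (56.1%) occur exactly in *Oas1g*, as did 30.2% of those of *Oas1g* in *Oas1a*. For *Oas2*, *Oasl1*, *Oasl2* and *Oas1c* no such window occurred in another gene, and for *Oas3* 4.88% did. The sources used here do not say how reads that match both genes were counted. *Oas1b*, *Oas1d*, *Oas1e*, *Oas1f* and *Oas1h* were not analysed here.

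Fewer Gata3KO cells carried a member's transcript. In another random thinning to 2000 UMIs per cell (387 Wt and 421 Gata3KO cells, 9 and 31 shallower ones left out), an *Oasl2* UMI was found in 42.6% (37.7 to 47.7) of Wt and 13.8% (10.6 to 17.4) of Gata3KO cells. *Oas3* was found in 23.3% and 6.41%, *Oas2* in 20.2% and 7.13%, and *Oasl1* in 12.4% and 4.99%, all with intervals apart. How many of all genes had intervals apart in this way is not given here. *Oas1a* was found in 5.17% (3.18 to 7.87) of Wt and 4.28% (2.55 to 6.67) of Gata3KO cells, shares that could not be told apart. The means over all possible thinnings were 46.7% and 14.7% for *Oasl2*, 25.5% and 6.36% for *Oas3*, 17.9% and 5.35% for *Oas2*, 14.1% and 4.93% for *Oasl1*, and 6.66% and 3.87% for *Oas1a*. Without thinning the shares were 85.1% and 51.3% for *Oasl2*, 65.2% and 23.7% for *Oas3*, 53.8% and 27.4% for *Oas2*, 42.2% and 21.2% for *Oasl1*, and 30.1% and 22.6% for *Oas1a*. No cell type known to lack these genes was at hand. In cluster 8, macrophage markers summed higher than muscle markers. Its 31 thinned Wt cells had *Oasl2* in 32.3%, *Oas2* in 22.6% and *Oas1a* in 3.23%. Shares of cells with a UMI are for that reason not read as shares of cells that express the gene, and the part of free RNA in them was not tested.

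In that thinning, cells with none of the 5 members made up 32.8% of Wt and 73.4% of Gata3KO cells, and over all possible thinnings the means were 30% and 73.1%. Cells with 3 members numbered 26 in Wt and 9 in Gata3KO, cells with 4 numbered 2 and 1, and 0 cells had all 5. Without thinning, all 5 members were found together in 34 of 396 Wt and 7 of 452 Gata3KO cells. The 46 Gata3KO cells richest in family UMIs held 45.7% of the total and the 40 richest Wt cells 30.9%, values that cannot be compared directly because fewer UMIs over more cells raise such a share by themselves. Of the Wt UMIs of *Oasl1*, 60.1% lay in 40 cells, against 44.8% for *Oas1a*, which had fewer UMIs, and up to 26 UMIs in a single Wt cell.

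The members were next set against a score of 18 other interferon-induced genes (among them *Isg15*, *Ifit1* and *Mx1*) that holds no member. Class cells were divided at the pooled terciles of 11.4 and 44.2 score UMIs per 10000, which are ranges of a measure and not cell types, and 61 Wt and 60 Gata3KO cells lay within 10% of a limit. The score genes and the members belong to 1 response, so agreement within a range describes the cells and tests nothing. The high range held 253 Wt and 30 Gata3KO cells, the middle range 137 and 145, and the low range 6 and 277. Within the high range, where the median score was 69.1 in Wt and 67.3 in Gata3KO, the family summed to 858 CPM (824 to 894) and 904 CPM (812 to 1003), a log2 ratio of 0.07 (-0.09 to 0.24). Each member had an interval that included 0 there, from -0.03 (-0.48 to 0.39) for *Oasl1* to 0.35 (-0.46 to 1.09) for *Oas1a*. In the middle range, where the median score was 33.6 in Wt and 17.7 in Gata3KO, the family was 389 CPM and 253 CPM, a log2 ratio of -0.62 (-0.79 to -0.45). Cluster 2 was 62.5% of the Wt cells in the high range and 40% of the Gata3KO cells.

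*Oas1a* spanned a smaller range than the other members from low to high score. In Gata3KO it went from 12.45 CPM in the low range to 25.5 CPM in the middle and 46.2 CPM in the high range. The other 4 members summed went from 66.7 CPM to 228 CPM and 857 CPM in the same cells. *Oas1a* was accordingly 15.7% (12.3 to 19.7) of family UMIs in the low range of Gata3KO, 10.1% (7.70 to 12.8) in the middle and 5.11% (3.06 to 7.96) in the high range. In Wt its share was 6.65% (4.83 to 8.88) in the middle and 4.22% (3.44 to 5.12) in the high range, and the 9 family UMIs of the low range were too few to use. In the high range the share of *Oas1a* in the libraries overlapped.

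**Figure D4:**
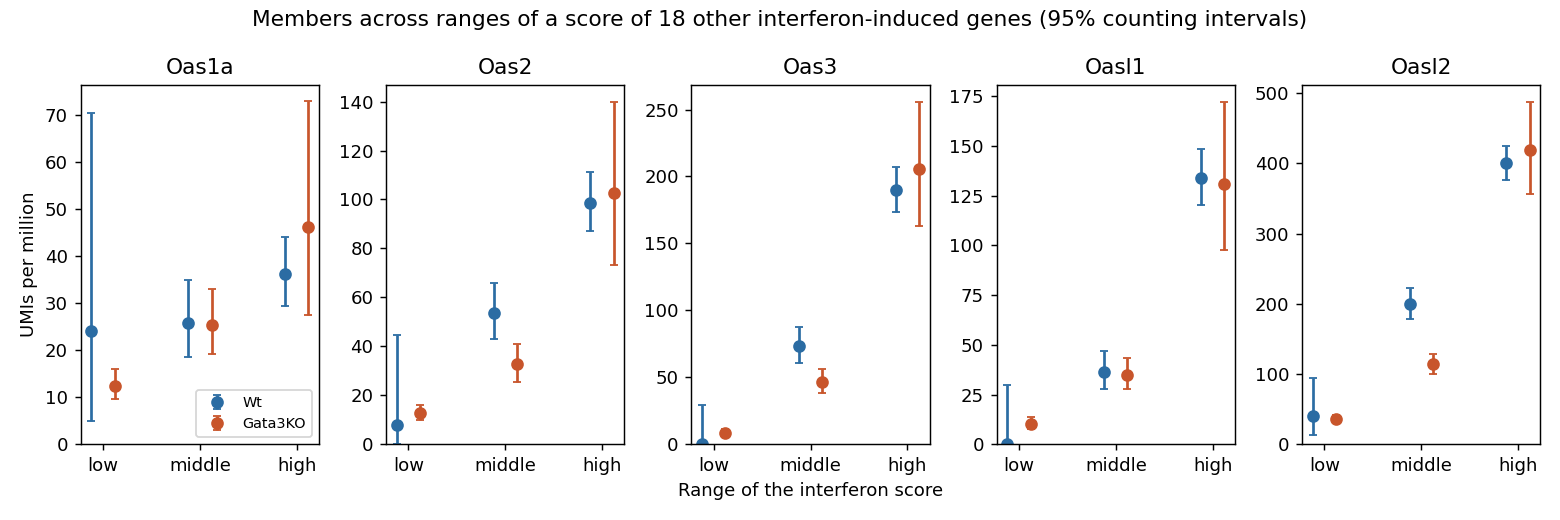
Level of each member in CPM (vertical axes, linear from 0, a scale of its own per member) in the low, middle and high range of the score of 18 other interferon-induced genes (horizontal axis), Wt in blue and Gata3KO in orange, bars being 95% Poisson counting intervals. In the high range the libraries overlap for every member, and the wide Wt bars in the low range come from 6 cells.

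*Abce1* and *Pde12*, which have known links to 2-5A, had log2 ratios that could not be told from 0 at this depth. *Abce1*, an ATPase that recycles ribosomes, was 26.5 CPM and 28.7 CPM, a log2 ratio of 0.11 (-0.22 to 0.45). *Pde12*, which degrades 2-5A, was 10.5 CPM and 12.2 CPM, a log2 ratio of 0.21 (-0.31 to 0.75). Both intervals included 0, and *Pde12* lay below 20 CPM in both libraries.

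Most other listed sensors of RNA were lower in Gata3KO as well. Of 19 listed RNA sensors and effectors 16 were measured, 13 of them lower past 1.5-fold (against 7.38% of all genes) and 0 higher, with a median log2 ratio of -1.51. The lowest were *Ifit2*, which binds viral RNA, at 225 CPM in Wt and 21.4 CPM in Gata3KO (-3.39, -3.64 to -3.15), the exonuclease *Isg20* at -3.21 and the RNA-binding *Ifit3* at -2.76. Of these, *Isg20* reached 20 CPM only in Wt, at 68.2 CPM against 7.36 CPM in Gata3KO. The highest were the ribosomal RNA sensor *Tlr13* at 0.28, the single-stranded RNA sensor *Tlr7* at -0.11 and the ubiquitin ligase *Trim25* at -0.26. The cytosolic receptors of double-stranded RNA, *Ddx58* and *Ifih1*, which encode RIG-I and MDA5, lay between them at -1.53 and -1.52.

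Of 21 listed genes of interferon signalling 20 were measured, with 8 lower (against 7.38% of all genes), 1 higher (against 4.49%, which is near 1 of 20) and a median log2 ratio of -0.36. Among the 8 lower, the kinase *Jak2* reached 20 CPM only in Wt, at 31.6 CPM against 15.5 CPM in Gata3KO. *Irf7* was 1140 CPM in Wt and 217 CPM in Gata3KO (-2.39, -2.47 to -2.31) and *Stat2* 185 CPM and 38.6 CPM (-2.26, -2.46 to -2.07). *Irf9*, the partner of *Stat2* at the ISRE, was 88.7 CPM and 53.5 CPM (-0.73, -0.93 to -0.53). The highest were the feedback inhibitor *Socs3* at 0.69, the receptor chain *Il10rb* at 0.33 and the kinase *Jak1* at 0.17. The chains of the type I interferon receptor had ratios above those of *Stat2* and *Irf7*, with *Ifnar1* at -0.34 (-0.52 to -0.15) and *Ifnar2* at 0.17 (0.05 to 0.30). Transcripts of the interferons themselves were not analysed here.

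**Figure D5:**
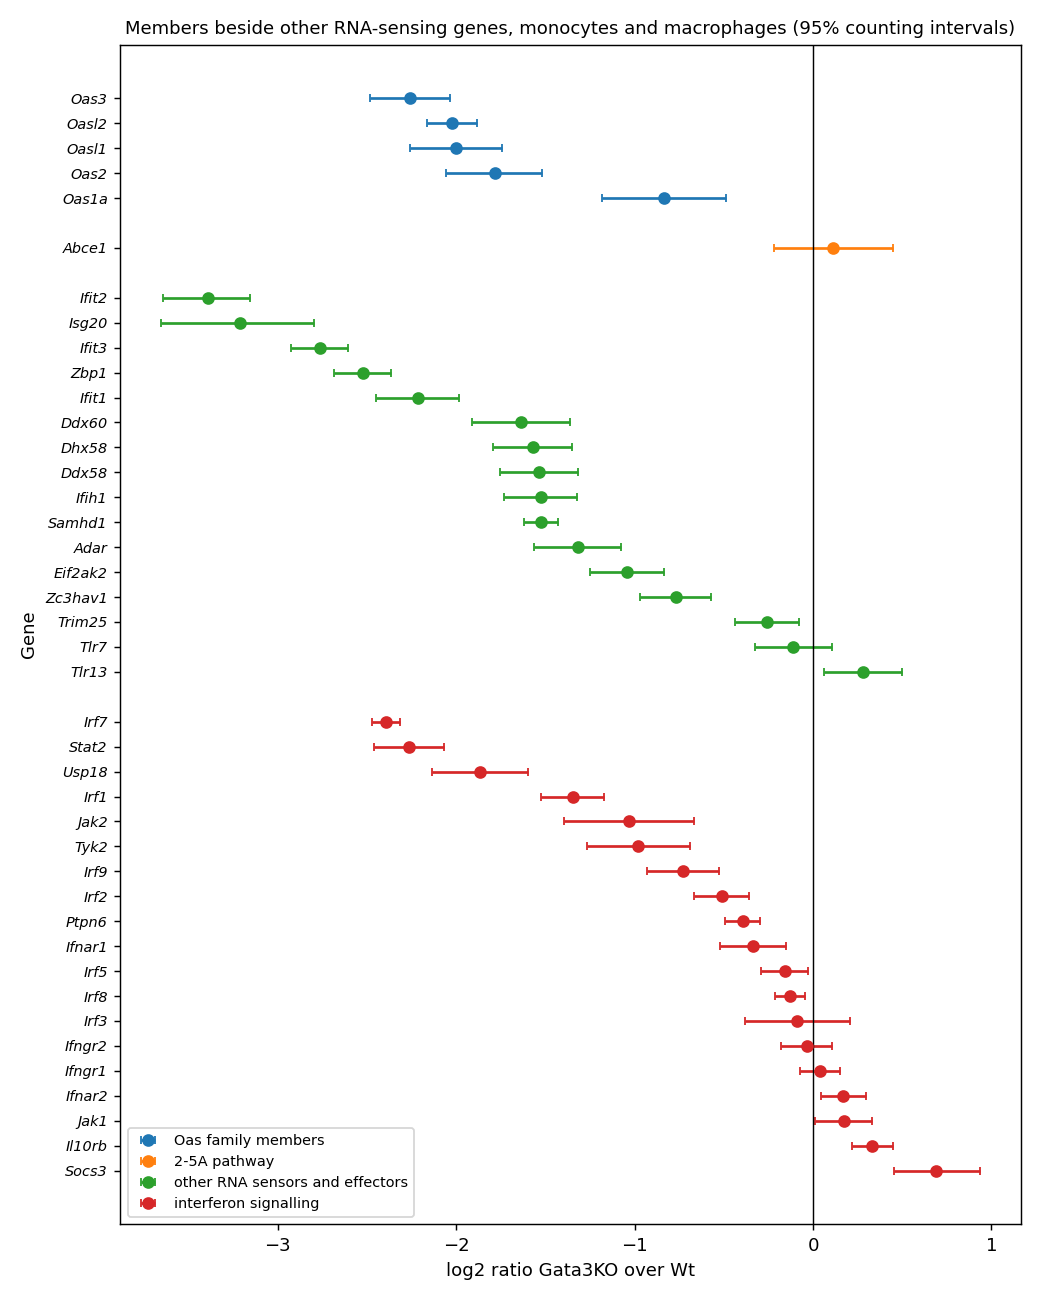
Log2 ratio of Gata3KO over Wt in monocytes and macrophages (horizontal axis, with a line at 0) for the 5 members and reported genes of 3 lists (vertical axis, ordered by ratio within a list and coloured by list), bars being 95% exact conditional intervals. The members lie between -2.26 and -0.83, *Abce1* lies at 0.11 and *Socs3* at 0.69.

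Across 15 profiles, each 1 cluster of 20 or more cells in 1 library, the genes whose level on the log2 scale (CPM plus 1) was most like the family sum among 6882 genes were *Irf7* (Pearson r 0.99), the antiviral GTPase *Mx1* (0.96), the RNA helicase *Ddx58* (0.95), *Slfn1* (0.95) and the ubiquitin ligase *Rnf213* (0.95). Those most like *Oas1a* were the membrane protease *Sppl2a* (0.82), *Ms4a4c* (0.80), the nuclear membrane protein *Tor1aip1* (0.78), *Tapbp*, which loads MHC class I (0.77), and *Cd52* (0.75). Between members r ran from 0.23 for *Oas1a* with *Oas2* to 0.87 for *Oas3* with *Oasl2*. Some profiles held few *Oas1a* UMIs, with 8 in Wt and 4 in Gata3KO for cluster 0, 4 in Wt cluster 6 and 5 in Wt cluster 8. The values of r for *Oas1a* are uncertain for that reason. Profiles of 1 library share its depth and its free RNA, so all these values describe the profiles and carry no p-value.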

How the data were processed

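The deposited tables, 1 per library, hold UMI counts per gene and cell barcode, as whole numbers with no normalization in the values. The submitters' processing notes name mm10, R 3.6.1, Seurat 3.0.2 and Cell Ranger 3.0.1, without their settings. Cells were filtered as stated, scaled to 10000 per cell, log-transformed and clustered together without integration after 118 interferon-induced genes were removed (2000 variable genes, 30 components, 15 neighbours, Leiden resolution 0.6, with scanpy 1.11.5, scikit-learn 1.9.0, leidenalg 0.10.2 and igraph 0.11.9). A cluster took the marker list with the highest mean z-score. Limits chosen after the data were seen left it unnamed below a mean z of 0.5, with fewer than 3 markers at 50 CPM, or where cycling and fibroblast scores both reached 2. Scrublet called 1 of 990 Wt and 4 of 650 Gata3KO cells doublets. The share of 0.101% in Wt is low, and called cells were left in.

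Counts of a class were summed per library and divided by its total. Sums have exact Poisson intervals, log2 ratios and differences between members exact conditional intervals, and shares exact Clopper-Pearson intervals (Python 3.11.15 with scipy 1.17.1, pandas 2.3.3 and numpy 2.4.6). Counts of genes past 1.5-fold used genes at 20 CPM or more in at least 1 library, with 1 CPM added. The calculations were tested on simulated data. Coordinates and 3′ ends came from GENCODE vM21 and promoters from RefSeq.

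The members and gene lists were chosen with earlier results of these data known. Named genes are the members, the genes of the 2-5A pathway, the 3 highest and 3 lowest measured genes of each other list, *Irf7*, *Irf9*, the 5 genes most correlated with the family sum and with *Oas1a*, and genes that describe a state. Some genes that the rule selects are not reported here. *Ddx58*, *Ifih1*, *Ifnar1*, *Ifnar2* and *Jak2* were named, and the sum of *Oas1a*, *Oas1c* and *Oas1g* was formed, after their values were seen. Alternatives were other barcode and mitochondrial limits, other clusterings, scalings, cell weights, thinning and list limits.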

Additional observations from a re-analysis of the deposited data

How the results depend on the processing

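No alternative turned the direction of any member, of the family sum or of *Oas1a* minus the other 4 members. Over 14 alternatives the log2 ratio of the family sum lay between -2.31 and -1.78, of *Oas1a* between -1.54 and -0.68, of *Oas2* between -1.90 and -1.14, of *Oas3* between -2.87 and -1.99, of *Oasl1* between -3.08 and -1.50 and of *Oasl2* between -2.25 and -1.83. The family sum moved past its counting interval to -1.79 with every deposited barcode reclustered, -1.83 with a mitochondrial limit of 20%, -2.31 at Leiden resolution 0.3, where the class held 64 Wt and 169 Gata3KO cells, -1.83 over all kept cells, -1.84 with every cell weighted alike, -1.78 with state shares held equal and -1.82 with every cell of at least 2000 UMIs weighted alike. *Oas1a* minus the other 4 members was 0.68 in the class with every deposited barcode reclustered, 1.57 at resolution 0.3 and 0.35 in 1 random thinning of each cell to 2000 UMIs, where the log2 ratio of *Oas1a* itself was -1.54. Over all possible thinnings these were 1.15 and -0.75. The share of *Oas1a* in that 1 thinning was 5.80% in Wt and 7.27% in Gata3KO, and it was 7.28% in Gata3KO with every deposited barcode reclustered. The cause of these shifts was not tested. Of 59 listed genes 38 were measured in the class, with 21 lower and 1 higher, against 7.38% and 4.49% of all genes. This became 12 lower and 0 higher at 100 CPM or more, and 0 higher at a fold of 2. The shares over all genes at these 2 limits are not given here. Over all kept cells 2 listed genes were higher, against 6.52% of all genes. By cluster, over 4 alternatives, the log2 ratio of the family sum lay between -1.76 and -1.25 in cluster 0 and between -1.73 and -1.55 in cluster 1. It lay between -1.44 and -0.83 in cluster 2 and between -2.49 and -2.22 in cluster 3. For cluster 4 it lay between -1.09 and -0.79, and for cluster 5 between -2.22 and -1.59, which comes close to the range of cluster 3. Median-of-ratios scaling shifted ratios by 0.07. No paired analysis was possible because each genotype has 1 library. That is also the main limit: no spread between animals was measured. The number of *Oas1a* UMIs limits every comparison within states.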

Other observations

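*Oas2* took a larger share of family UMIs in the barcodes left out by the filter, which were not split by the limit they failed. In the 2300 Wt and 2784 Gata3KO barcodes left out by the filter, *Oas2* was 28.2% (26.9 to 29.6) and 33.3% (31.3 to 35.3) of family UMIs, against 12% and 13.4% in monocytes and macrophages. Its level there was 178 CPM in Wt and 71.5 CPM in Gata3KO, a log2 ratio of -1.32 (-1.46 to -1.19). The unnamed low-UMI cluster 0, led by *Gm42418*, *Slfn4* and *Lars2*, was alike, with *Oas2* at 27.0% (23.1 to 31.2) of family UMIs in Wt and 32.6% (23.2 to 43.2) in Gata3KO. In cluster 6, also of low UMI count, *Oas2* was 17.5% (11.9 to 24.5) in Wt, an interval that overlapped that of the class (10.8 to 13.2). Gata3KO had 5 family UMIs in cluster 6, too few to use. The family summed to 632 CPM and 215 CPM in the left-out barcodes. *Oas1a*, at 18.8 CPM and 9.43 CPM, was below the 20 CPM limit there, and its log2 ratio exceeded that of the other 4 members by 0.58 (0.17 to 0.98).

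At a finer clustering (resolution 1.2), the Gata3KO level of the family ran from 129 CPM to 560 CPM over the states listed. The state with the highest was led by *Clec4b1*, *Ccr2* and *Plac8*, stayed unnamed, and held 109 Wt and 24 Gata3KO cells, with the family at 909 CPM (843 to 979) and 560 CPM (451 to 687). *Oas3* there was 172 CPM (144 to 204) and 146 CPM (93.6 to 217), with overlapping intervals. An inflammatory monocyte-like state led by *Hp* and *Vcan* held 27 and 22 cells, with the family at 927 CPM (817 to 1048) in Wt and 158 CPM (112 to 218) in Gata3KO. *Oasl1* had 59 UMIs in the Wt cells of that state and 1 in the Gata3KO cells, 213 CPM (162 to 275) and 4.28 CPM (0.11 to 23.9). These states were singled out after their values were seen.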
